A study of Oscheius tipulae with 48 samples.

Results

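Post-dauer L4 larvae of the nematode Oscheius tipulae were compared with L4 larvae that had developed directly. The comparison rests on 4 whole-worm RNA-seq libraries of strain CEW1, with no mutation named for them, chosen by their stage labels from 48 libraries in 23 groups: 2 of post-dauer L4 and 2 of L4. Direct L4 larvae came from embryos that hatched in medium and arrested as L1, and were then fed on bacterial plates at 20 °C. Post-dauer worms came from dauer larvae harvested from liquid culture, and their growth temperature is not given in the labels. Passage through dauer and growth in liquid culture thus cannot be told apart. The number of worms in these 4 libraries, and whether libraries of a group came from separate cultures, are not given beyond the word biological. P-values cover only the spread within groups, pooled over the 25 libraries of a shared fit, and some of it may be technical. The shared fit also held the other larval, dauer and adult groups of CEW1, including adult males of genotype him-1(sy527). Levels are RPKM, reads scaled by gene length and library size, for 14558 genes. The file gives gene IDs without names, so gene functions cannot be stated and IDs are used throughout.

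Nematodes pass through 4 larval stages, L1 to L4, separated by moults in which the cuticle is shed and rebuilt, and the L4 stage ends in the adult. Under crowding, starvation or heat, larvae can enter dauer, a non-feeding, stress-resistant larva formed in place of the ordinary L3, with a sealed body and a changed metabolism. When food returns, dauer larvae resume development, moult to the post-dauer L4 and become adults. In Caenorhabditis elegans, adults that have passed through dauer are known to keep differences in gene expression and chromatin from adults that have not.

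The libraries differed in their low values before any gene was compared. Silent genes were defined as the 3427 genes with a median under 0.5 RPKM over the other 44 libraries. Their median was 0.25 and 0.33 RPKM in L4 replicates 1 and 2. In post-dauer L4 it was 1.43 RPKM in replicate 1 and 0.44 RPKM in replicate 2. Post-dauer L4 replicate 1 stood above both L4 libraries and above 40 of the other 44 libraries. It listed 14 genes at 0, where post-dauer L4 replicate 2 listed 1242 and the L4 libraries 503 and 1317. Dauer replicates 1 and 2, post-dauer L3 replicate 1 and post-dauer young adult replicate 1 had higher medians still, up to 5.39 RPKM. Low values of a group that holds one of these libraries are therefore raised in that group.

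**Figure D1:**
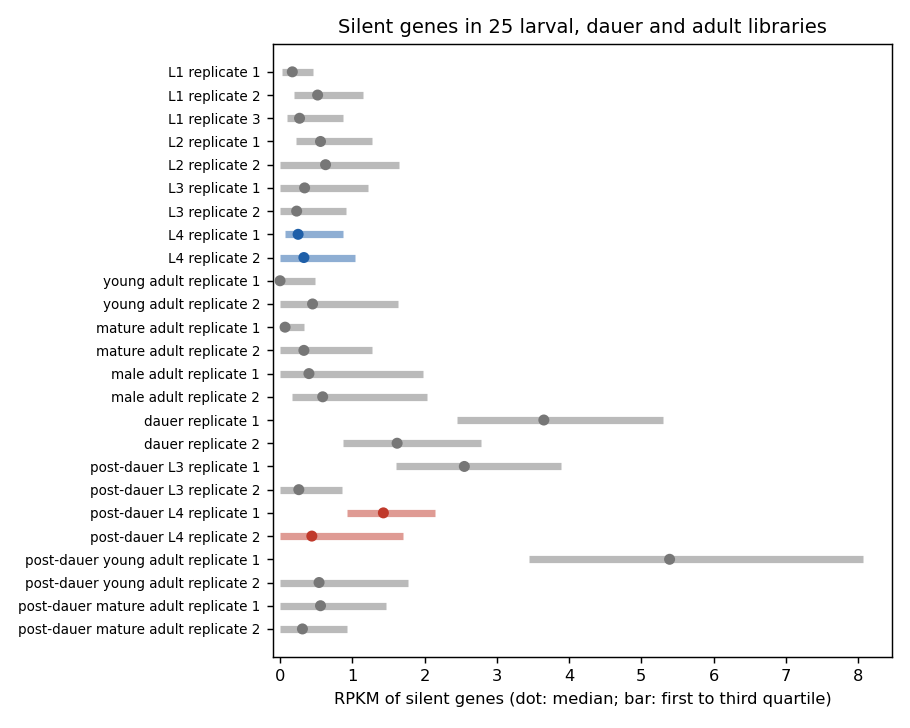
RPKM of the 3427 silent genes (x axis) in each of the 25 larval, dauer and adult libraries (y axis), with the median as a dot and the lower to upper quartile as a bar. Post-dauer L4 is red, L4 is blue and other groups are grey. Post-dauer L4 replicate 1, at 1.43 RPKM, lies above replicate 2 at 0.44 RPKM and both L4 libraries.

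The L4 libraries were close copies of each other and the post-dauer L4 libraries were not. Across all genes on the log2(RPKM + 1) scale, the L4 libraries correlated at r = 0.989 and the post-dauer L4 libraries at r = 0.871. Among genes reaching 10 RPKM in either library, the median difference between replicates was 0.15 on the log2 scale in L4 and 0.64 in post-dauer L4. A difference of at least 2-fold separated the replicates for 62 of 6977 genes in L4 (0.889%) and for 2049 of 7074 genes in post-dauer L4 (29.0%). The same kind of difference between the means of the 2 groups was seen for 2100 of 7982 genes (26.3%). These shares do not say whether the same genes are involved. At most 0.283% of genes at 1 RPKM or more had identical values in any pair of the 4 libraries, and all 4 were counted as separate.

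Neither post-dauer L4 library resembled direct L4 most. Post-dauer L4 replicate 1 correlated most closely with post-dauer mature adult replicates 1 and 2, at r = 0.928 and 0.917, and with the L4 libraries at 0.845 and 0.847. Post-dauer L4 replicate 2 correlated most closely with post-dauer young adult replicate 2 at 0.935, young adult replicate 2 at 0.923 and mature adult replicate 2 at 0.918, and with the L4 libraries at 0.870 and 0.868. The L4 libraries, in contrast, correlated at 0.949 to 0.962 with the L3 libraries and with post-dauer L3 replicate 2. Restricted to genes with a mean of at least 5 RPKM over the 25 libraries, the nearest library of each post-dauer L4 library was unchanged. It was post-dauer mature adult replicate 1 for replicate 1, at 0.896, and post-dauer young adult replicate 2 for replicate 2, at 0.872. These correlations run across genes, which are not independent replicates, and they describe libraries only. No stage markers could be looked up by name, so the stage label of the post-dauer L4 libraries was not checked against known genes, and a difference in stage cannot be told apart from a difference in history.

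In post-dauer L4 larvae, 94 genes fell and 33 rose relative to direct L4. The 94 lower genes were mostly well expressed in L4 and close to silent in both post-dauer libraries: their median was 37.9 and 34.0 RPKM in the L4 libraries and 1.99 and 1.86 RPKM in post-dauer L4 replicates 1 and 2. The 33 higher genes had the opposite pattern, with a median of 1.13 and 1.10 RPKM in L4 and 40.4 and 22.9 RPKM in post-dauer L4. Post-dauer L4 replicate 1 was thus above replicate 2 on the higher genes. The gap between post-dauer L4 and L4 in both lists follows from choosing the genes on these same 4 libraries. In whole worms, fewer cells of a type and less RNA per cell cannot be told apart.

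A gene was called where RPKM + 1 changed at least 2-fold and limma, fitted to 25 libraries, put its p below 0.05 after Benjamini-Hochberg adjustment. Of 14446 genes tested, 127 were called (0.879%), 0.651% lower and 0.228% higher, and 1497 reached an unadjusted p under 0.05. In absolute size, the median log2 change was 3.52 among the lower genes and 3.49 among the higher ones. At least 8-fold changes were seen for 71 of 94 and 22 of 33 genes. Large sizes partly follow from the call itself: the smallest called changes were 2.01 and 2.14 on the log2 scale, also in absolute size. In the group where they were higher, 21 lower genes and 6 higher genes had a mean of at least 100 RPKM, and 68 and 24 had a mean between 10 and 100 RPKM. Groups did not overlap for any of the 127 genes, which largely follows from calling them on these same libraries. Of all tested genes, 25.4% lay wholly lower and 28.6% wholly higher in post-dauer L4. Leaving out either L4 library reduced the count to 2, leaving out post-dauer L4 replicate 1 reduced it to 13 and leaving out post-dauer L4 replicate 2 to 28, of which 17 were higher and 11 lower. Replicate 1 of L1, young adult, dauer, post-dauer L3 and post-dauer young adult, 5 libraries chosen with earlier results known, was also left out, and the count was then 749, with 215 higher and 534 lower, 126 of the 127 among them. With post-dauer L4 replicate 1 left out as well, 438 genes were higher and 378 lower, so that the larger number of lower genes did not hold.

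**Figure D2:**
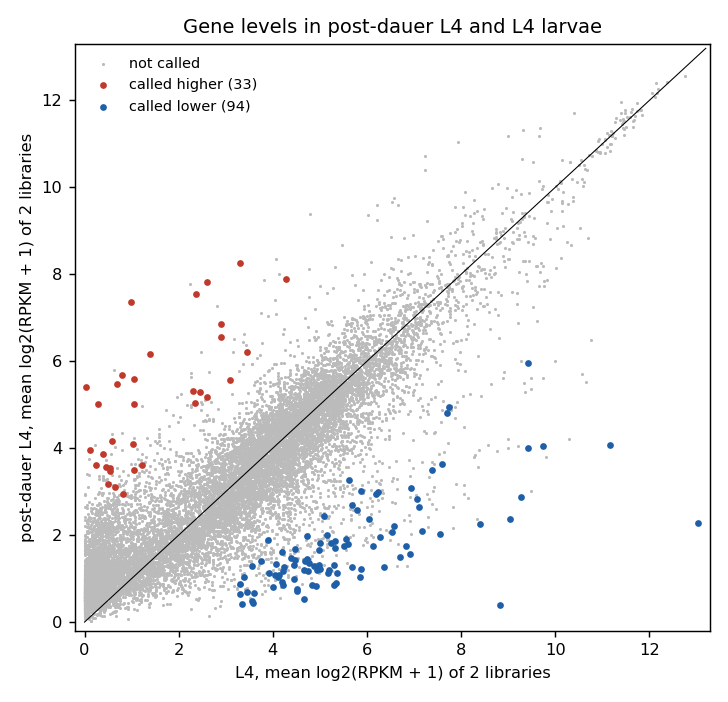
Mean level of each of the 14446 tested genes in direct L4 (x axis) and post-dauer L4 (y axis), both as log2(RPKM + 1) over 2 libraries, with the line of equality. The 33 genes called higher (red) lie above the line and the 94 genes called lower (blue) below it, 15 and 18 of them with a mean under 1 RPKM in the group where they are lower.

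The most abundant gene of the lower set was Oti_g01248. Its level in L4 replicates 1 and 2 was 8491 and 8217 RPKM, and in post-dauer L4 it was 4.05 and 3.71 RPKM, a log2 change of -10.74 ± 1.47 (SE, Benjamini-Hochberg adjusted p from limma = 0.00186). Both L4 libraries were high and both post-dauer libraries were close to 0 by comparison. In other direct stages it was at 268 and 1722 RPKM in L3, 1.43 and 3.82 RPKM in young adults, and 0.620 and 171.79 RPKM in mature adults. After dauer it reached 6.25 and 17.7 RPKM at L3, so none of the post-dauer groups held it at a level near that of L3 or L4. In 20 embryo libraries it did not exceed 2.33 RPKM. The call was lost without either L4 library (adjusted p = 0.0614 and 0.0675 in limma with Benjamini-Hochberg adjustment).

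Oti_g12261 showed an L4-centred pattern. It was at 416.05 and 501.57 RPKM in L4, against 0.300 and 0.330 RPKM in post-dauer L4, a log2 change of -8.44 ± 0.90 (SE, Benjamini-Hochberg adjusted p from limma = 0.000143). Outside L4 its highest value in any larval, dauer or adult library was 25.2 RPKM, in L2 replicate 2, and the other post-dauer libraries lay between 0 and 0.730 RPKM. Its call held under all 14 alternatives, with adjusted p values from 5.68e-05 to 0.0263.

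The higher genes of largest change were Oti_g08406 and Oti_g08405, which carry consecutive ID numbers. Oti_g08406 was at 0.880 and 1.11 RPKM in L4 and at 462 and 57.2 RPKM in post-dauer L4 replicates 1 and 2, a log2 change of 6.36 ± 0.94 (SE, Benjamini-Hochberg adjusted p from limma = 0.00359). Oti_g08405 was at 0.0300 and 0 RPKM in L4 and at 142.5 and 11.5 RPKM in post-dauer L4. Its log2 change was 5.38 ± 1.10 (SE, Benjamini-Hochberg adjusted p from limma = 0.0303). Replicate 1 was the higher of the post-dauer libraries for both genes, and replicate 2 was still above every direct library for Oti_g08406. Without post-dauer L4 replicate 1 the log2 changes were 4.87 and 3.62 and neither was called (Benjamini-Hochberg adjusted p from limma = 0.0871 and 0.276), and both calls were also lost without either L4 library. They were lost too with only the L4 and post-dauer L4 groups in the model (adjusted p = 0.0514 and 0.0931 by limma and Benjamini-Hochberg) and at a pseudocount of 0.1 (0.0542 and 0.0522). Oti_g08405 was not called after quantile normalization either (Benjamini-Hochberg adjusted p from limma = 0.0729). Whether reads can be shared between these genes is not known from the values.

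Oti_g08406 was also high in the other post-dauer libraries. After dauer, Oti_g08406 had 40.5 and 59.7 RPKM at L3, 106.55 and 76.4 RPKM in young adults and 150.67 and 50.0 RPKM in mature adults. In direct larvae and adults it did not exceed 11.8 RPKM, the value of young adult replicate 1, and in dauer it was at 4.77 and 10.6 RPKM. Every one of the 8 post-dauer libraries was thus above every direct and dauer library. Between post-dauer and direct mature adults its log2 change was 5.63 ± 0.94 (SE, Benjamini-Hochberg adjusted p from limma = 0.00246). Between post-dauer L3 and L3 it was 3.03 ± 0.94, and between post-dauer and direct young adults 3.42 ± 0.94 (SE). Neither passed (Benjamini-Hochberg adjusted p from limma = 1 and 0.179). Oti_g08405 was lower, at 6.45 and 4.57 RPKM in L3 larvae after dauer, 73.35 and 10.57 RPKM in young adults and 47.48 and 15.98 RPKM in mature adults. Young adult replicate 1, at 11.82 RPKM, lay within that range. Its log2 change passed in mature adults, at 4.55 ± 1.10 (SE, Benjamini-Hochberg adjusted p from limma = 0.0250), and not in young adults or L3 (0.180 and 1).

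**Figure D3:**
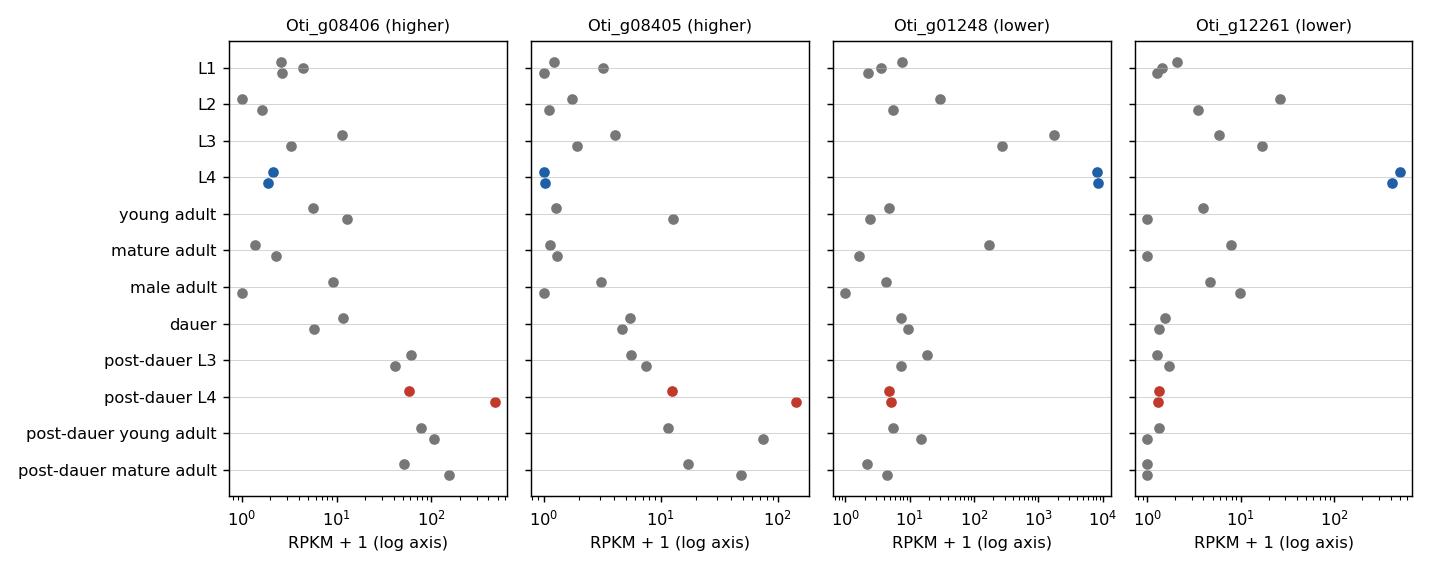
RPKM + 1 on a log axis for 4 genes in the 25 larval, dauer and adult libraries, with 1 dot per library, post-dauer L4 in red and L4 in blue. Oti_g08406 is above 40 RPKM in all 8 post-dauer libraries and at most 11.8 RPKM elsewhere, whereas Oti_g01248 and Oti_g12261 peak in L4 and are near 0 in post-dauer L4.

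The 33 higher genes were then followed in the other libraries. Those of the shared fit had helped set the spread behind the calls, but not the size of the change. In post-dauer L3 the median of the 33 was 10.9 and 14.1 RPKM. It was 19.1 and 23.2 RPKM in post-dauer young adults and 27.9 and 16.5 RPKM in post-dauer mature adults. In the 13 other direct larval, adult and male libraries it lay between 0.760 and 6.83 RPKM, and in dauer it was 5.4 and 5.28 RPKM. All 6 of these post-dauer libraries were therefore above all 15 direct and dauer libraries. In 20 embryo libraries the median did not exceed 0.650 RPKM. Against direct mature adults, 24 of the 33 genes were called higher in post-dauer mature adults and 0 lower, where 3.99% of all tested genes were called higher and 4.73% in either direction. Their median log2 change there was 2.76, against 0.28 over all genes, and 31 of 33 did not overlap, against 36% of all genes. The 25-library fit gives each gene the same spread in every comparison, so genes called at L4 were more easily called in adults too.

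In post-dauer young adults against young adults, limma called 0 of the 33 genes, with 5 called among all genes, all lower (0.0346%), and 3580 of all genes at an unadjusted p under 0.05. Their median log2 change was 1.73, against 0.59 over all genes, and 29 of 33 lay wholly higher, against 27.7%. In post-dauer L3 against L3, limma called 0 of the 33 genes and 0 of all genes, with 279 of all genes at an unadjusted p under 0.05. The median log2 change of the 33 was 0.45, against 0.07 over all genes. There 15 of 33 lay wholly higher, against 15.1%, and 5 wholly lower, against 16.3%. One library of each of these post-dauer groups, replicate 1, carries raised silent genes. In a fit without the 5 libraries named above, the median of the 33 was 2.02 in young adults, against 0.09 over all genes, and 0.67 at L3, against -0.09, with 0 of the 33 called in either.

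The higher genes differed among themselves in their level in dauer. In dauer larvae, 13 of the 33 had a mean of at least 10 RPKM and 20 did not. The 13 had a median of 36.0 and 28.2 RPKM in dauer. After dauer it was 13.4 and 18.5 RPKM at L3 and 84.3 and 50.6 RPKM at L4. The 20 had a median of 4.88 and 2.88 RPKM in dauer, and after dauer of 7.56 and 9.61 RPKM at L3 and 26.9 and 11.3 RPKM at L4. This split was made after the values were seen, and the level in post-dauer L4 follows from how the 33 were chosen. For 24 of the 33 genes, the means of post-dauer young adults and of post-dauer mature adults both exceeded the mean of every other direct larval, adult or male group, and for 12 the mean of post-dauer L3 did so too. Over all tested genes these shares were 7.96% and 4.17%. In dauer against L3, 2 of the 33 were called higher and 3 lower, against 1.02% and 1.97% of all genes and 2.99% in either direction. Without the 5 libraries, 0 were called higher and 4 lower.

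The 94 lower genes were highest in L2, L3 and L4 larvae. Their median was 26.5 and 25.5 RPKM in L2, 20.5 and 24.8 RPKM in L3, and 0.700 and 4.83 RPKM in young adults. Mature adults had 0.475 and 4.96 RPKM, males 1.67 and 1.81 RPKM, and dauer larvae 3.95 and 2.48 RPKM. Their mean was at least 10 RPKM for 78 genes in L2, 79 in L3, 89 in L4 and 8 in post-dauer L4. The counts in L4 and post-dauer L4 follow from how the 94 were chosen. In L1 the median was 1.35 to 2.08 RPKM over 3 libraries, and it did not exceed 1.41 RPKM in 20 embryo libraries.

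After dauer, the lower genes were present at L3, and their low level at L4 follows from how the 94 were chosen. Their median was 24.3 and 10.4 RPKM in post-dauer L3, and 66 of 94 had a mean of at least 10 RPKM there. In post-dauer young adults it was 6.27 and 10.2 RPKM and in post-dauer mature adults 3.29 and 1.58 RPKM. In post-dauer L3 against L3, limma called 0 of the 94, as of all genes, with a median log2 change of -0.30 against 0.07 over all genes. Without the 5 libraries that median was -0.94, against -0.09, and 0 were called. The comparisons of young adults and of dauer with L3 share no library with post-dauer L4 or L4. They take each gene's spread from the same fit, however, so genes called at L4 were more easily called there too. Between young adults and L3, 57 of the 94 were called lower and 1 higher in young adults. Among all genes, 4.02% were called lower and 8.48% in either direction. The 94 had a median log2 change of -2.49, against -0.23 over all genes. Without the 5 libraries, which include young adult replicate 1, 27 were called lower and 2 higher, against 2.58% and 8.19% of all genes, with a median of -1.88 against -0.20. In dauer against L3, 34 were called lower and 0 higher, against 1.97% and 1.02% of all genes, with a median log2 change of -2.31 against 0.14. Without the 5 libraries, which include dauer replicate 1, 65 were called lower and 1 higher, against 9.47% and 5.95%, with a median of -2.68 against -0.08. In post-dauer young adults against young adults, 1 of the 94 was called lower and 0 higher, against 0.0346% and 0% of all genes. Their median log2 change was 1.20, against 0.59 over all genes. There 34 of 94 lay wholly higher, against 27.7%, and 7 wholly lower, against 15.4%. Without the 5 libraries that median was 0.58, against 0.09. In post-dauer mature adults against mature adults, 3 were called lower and 0 higher, against 0.741% and 3.99% of all genes. Their median log2 change was 0.12, against 0.28 over all genes. Without the 5 libraries, 14 were called lower and 4 higher, against 6.54% and 15.2% of all genes.

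**Figure D4:**
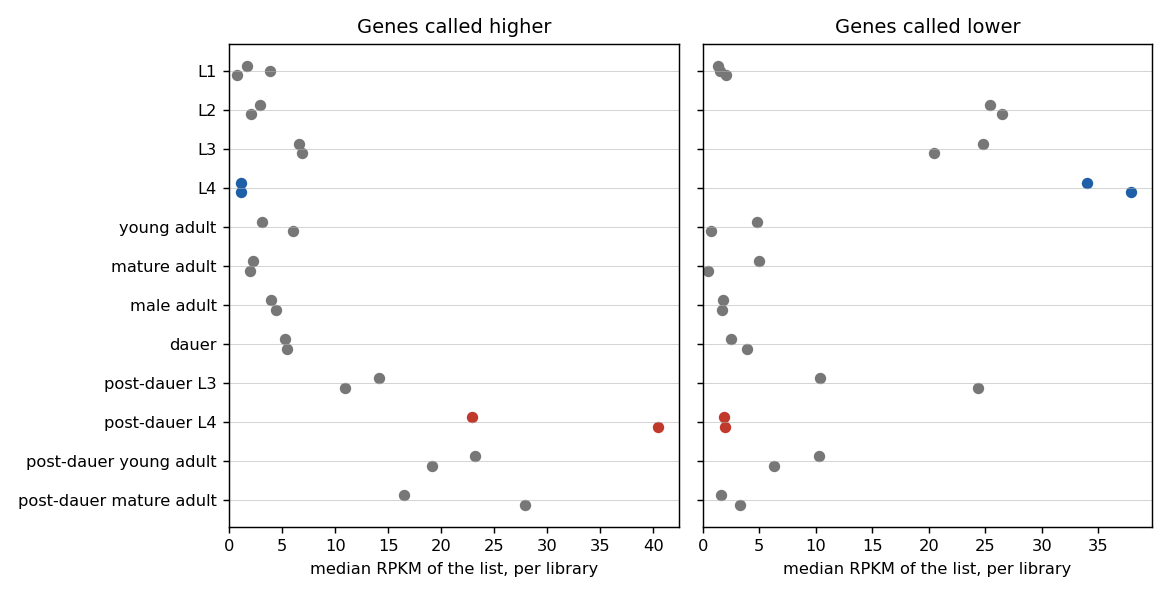
Median RPKM per library (x axis) of the 33 genes called higher (left) and the 94 genes called lower (right) in the 12 larval, dauer and adult groups (y axis), with 1 dot per library, post-dauer L4 in red and L4 in blue. Those 2 groups set the change by which genes were listed. The higher genes are at 10.9 RPKM or more in all 8 post-dauer libraries, and the lower genes are at 20.5 RPKM or more in the L2, L3 and L4 libraries and at 1.99 RPKM or less in post-dauer L4.

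A count that uses no estimate of the spread gave a similar split. Genes were taken as set apart where the lowest RPKM + 1 in either group was at least 4 times the highest in the other and the higher group had a mean of at least 10 RPKM. This rule, chosen after the data were seen, gave 297 genes lower (2.06%) and 70 higher (0.485%) in post-dauer L4. In post-dauer L3 against L3 it gave 15 lower (0.104%) and 2 higher (0.0138%). It gave 22 lower (0.152%) and 12 higher (0.0831%) in young adults, and 104 lower (0.72%) and 282 higher (1.95%) in mature adults. Of the 70 genes set apart upward at L4, 46 were also set apart upward in mature adults, which is 65.7% of the L4 list and 16.3% of the adult list. Of the 297 set apart downward at L4, 8 were set apart downward in mature adults, 2.69% of the L4 list and 7.69% of the adult list. The comparisons at L4 and in mature adults share no library. No gene set apart at L4 was set apart the opposite way in mature adults, and 1 of the 70 was set apart downward at L3.

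In dauer the 70 genes had a median of 43.99 and 36.9 RPKM. After dauer their median was 8.12 and 15.4 RPKM at L3, 58.2 and 64.3 RPKM at L4, 75.9 and 29.7 RPKM in young adults and 103.475 and 63.5 RPKM in mature adults. Their median was 4.46 and 4.96 RPKM in L4 and 2.35 and 4.91 RPKM in mature adults. The levels in L4 and post-dauer L4 follow from the 4-fold rule that chose the 70 genes. By their median, these genes were high in dauer, lower in post-dauer L3 and high again in post-dauer young and mature adults. L1 replicate 2 was also high at 32.6 RPKM.

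Many abundant genes were at similar levels in the 4 libraries. Among 4915 genes at 10 RPKM or more in all 4 libraries, a filter that removes most genes that changed, 1224 had all 4 values within 1.5-fold of each other and 2891 (58.8%) within 2-fold. Of the 100 genes with the highest mean in L4, 81 were also among the 100 highest in post-dauer L4. Of those 100 L4 genes, 2 were called lower, and 1, Oti_g01248, was under 10 RPKM in both post-dauer libraries. The same 100 genes held 37.5% and 38.3% of all RPKM in the L4 libraries, and 42.3% and 29.9% in post-dauer L4 replicates 1 and 2. The post-dauer libraries thus lay on either side of both L4 libraries in this share.

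Genes of other larval and adult stages differed as groups. A gene entered a list where its lowest RPKM + 1 in a stage was at least 2 times its highest in another and its mean in the higher stage was at least 10 RPKM, and none of the 4 libraries compared took part. Over all 14446 genes the median log2 change was 0.12 from L4 to post-dauer L4. Genes higher in L3 than in young adults were lower in post-dauer L4, with a median log2 change of -0.96 over 820 genes, of which 57 were called lower and 3 higher. Over all genes 0.651% were called lower and 0.228% higher, and the counts below are read against these shares. Genes higher in L3 than in dauer had a median of -0.94 over 1418 genes, with 72 called lower and 6 higher. These lists share 417 genes. Of the first list, 73.4% of genes lay wholly lower in post-dauer L4, and of the second 64.8%, against 25.4% of all genes. Genes higher in L3 than in L1 had the lowest median, -1.97 over 552 genes, with 57 called lower and 5 higher.

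Lists of dauer, young adult and male genes lay on the other side of the median of all genes. Genes higher in dauer than in L3 had a median log2 change of 1.00 over 469 genes, of which 6 were called higher and 0 lower (0.228% and 0.651% over all genes), and 64.4% lay wholly higher, against 28.6% of all genes. Their median was 3.97 and 4.32 RPKM in L4 and 9.13 and 12.8 RPKM in post-dauer L4, both above both L4 libraries. Genes higher in young adults than in L3 had a median log2 change of 0.65 over 902 genes, with 0 called higher and 1 lower, and 64.3% wholly higher. Genes higher in males than in mature adults, where male sex goes together with the him-1(sy527) genotype, had a median of 0.98 over 1270 genes, with 5 called higher and 0 lower. Their level was 1.37 and 1.58 RPKM in L4 and 2.88 and 7.14 RPKM in post-dauer L4 replicates 1 and 2. The median log2 change of this list was 0.67 with replicate 1 alone and 1.02 with replicate 2 alone. It was 0.71 with the silent-gene median subtracted, 0.68 after quantile normalization and 1.45 with the list rule at 4-fold. Genes higher in 2-4 cell embryos than in L3 had a median of 0.53 over 1211 genes, with 0 called and 56.2% wholly higher. The list of genes higher in 64-128 cell embryos than in L3, at 0.19 over 1102 genes, were close to all genes.

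For 3 lists the post-dauer libraries fell on opposite sides of L4. Genes higher in mature adults than in males, 314 in all, had a median log2 change of -0.43 in replicate 1 alone and 0.37 in replicate 2 alone. Of these 314, 10 were called lower and 1 higher, against 0.651% and 0.228% of all genes. Among them 32.8% lay wholly lower and 24.5% wholly higher, against 25.4% and 28.6% of all genes. Genes higher in L3 than in L2, 158 in all, had medians of -1.54 and 0.12. Genes higher in L1 than in L3 number only 13, and gave -0.33 and 0.25. Genes higher in L2 than in L3, 32 in all, had medians of -0.85 and -1.14, with 1 called lower. With both libraries together these 4 lists gave -0.09, -0.48, 0.30 and -1.07.

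**Figure D5:**
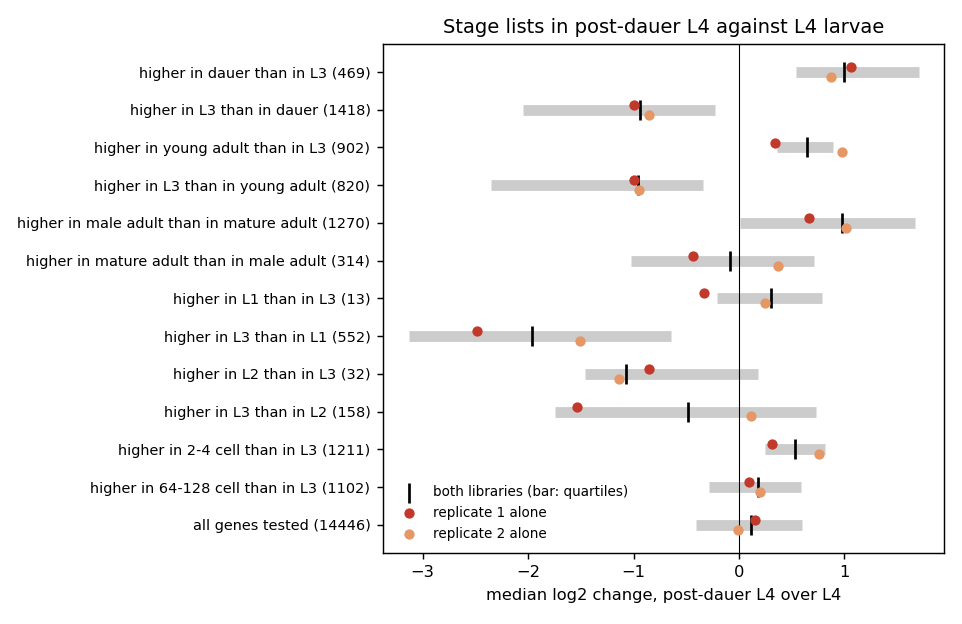
Median log2 change from L4 to post-dauer L4 (x axis) for 12 stage lists and for all genes tested (y axis, number of genes in brackets), with both post-dauer L4 libraries together as a tick, the quartiles over genes as a grey bar and each post-dauer L4 library alone as a dot. Lists of genes higher in L3 than in dauer, young adults or L1 lie between -1.97 and -0.94, and lists higher in dauer or males lie at 1.00 and 0.98.

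The post-dauer L4 libraries also differed from each other by stage list. Relative to replicate 1, replicate 2 was higher on genes of 2-4 cell embryos, with a median log2 difference of 0.57 over 1211 genes, and on genes higher in mature adults than in males, at 0.85 over 314 genes. It was higher on genes of L3 over L2, at 1.66 over 158 genes, and on genes of young adults over L3, at 0.66 over 902 genes. On genes of L2 over L3 it was lower, at -0.76 over 32 genes. Over all 14446 genes the difference was -0.07, with 1781 at least 2-fold higher in replicate 2 and 2581 in replicate 1. Male genes gave 0.48 over 1270 genes, of which 431 were at least 2-fold higher in replicate 2 and 160 in replicate 1. Genes of dauer gave 0.16 over 469 genes, with 113 at least 2-fold higher in replicate 2 and 118 in replicate 1. With 1 library on each side, these values have no replicate check.

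Whether post-dauer and direct larvae differed at L4 as they did at L3 was tested gene by gene, as the difference between both effects. Limma called 0 of 14446 genes, with 695 at an unadjusted p under 0.05 (4.81%) and a lowest adjusted p of 0.0705. The genes of largest change at that unadjusted p included Oti_g12119. At the L3 stage it had 310 and 738 RPKM after dauer against 345 and 277 RPKM in direct larvae, and at the L4 stage 3.37 and 5.09 RPKM against 617 and 442 RPKM. Its difference of effects was -7.29 ± 1.65 (SE) and did not pass (Benjamini-Hochberg adjusted p from limma = 0.477), except with only the 8 libraries of these groups in the fit (Benjamini-Hochberg adjusted p from limma = 0.0181). Oti_g13240 had a difference of -6.66 ± 2.34, and Oti_g11075 and Oti_g08837 had differences of 6.26 ± 1.82 and 6.11 ± 1.98 (SE). None of these passed in limma (Benjamini-Hochberg adjusted p = 0.687, 0.524 and 0.564). At the L4 stage Oti_g11075 had 57.0 and 417 RPKM after dauer against 4.75 and 7.49 RPKM, and at the L3 stage 5.85 and 13.9 RPKM against 26.2 and 43.4 RPKM.

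Against mature adults, the post-dauer effect at L4 differed for 15 genes (0.104%), of which 7 had a higher (0.0485%) and 8 a lower effect at L4 (0.0554%). The higher ones of largest change were Oti_g13559 and Oti_g12875, whose means in direct worms were highest in mature adults and low in adult males. Oti_g12875 was at 9840 and 3026 RPKM in mature adults and 77.1 and 108.8 RPKM in L4, against 1.44 and 4.70 RPKM in post-dauer mature adults and 2.61 and 3.92 RPKM in post-dauer L4. Oti_g13559 was at 9851 and 2143 RPKM in mature adults and 0.950 and 4.30 RPKM in post-dauer mature adults. In L4 it was at 34.0 and 71.1 RPKM and in post-dauer L4 at 2.56 and 3.22 RPKM. Both genes were thus low in post-dauer L4 and in post-dauer mature adults, and between post-dauer L4 and L4 Oti_g12875 was among the 94 genes that fell, while Oti_g13559, at -3.70 ± 0.89 (SE), was not (Benjamini-Hochberg adjusted p from limma = 0.0120 and 0.0552). Because mature adults start from a higher level than L4, the difference is larger there, and the differences of effect were 6.79 ± 1.26 and 6.06 ± 1.12 (SE, Benjamini-Hochberg adjusted p from limma = 0.0401 for each). Across all 8 post-dauer libraries neither gene exceeded 19.2 RPKM, although young adults held 605 to 1738 RPKM. Low levels were not confined to post-dauer worms: adult males held 5.88 and 2.47 RPKM of Oti_g13559 and 8.42 and 3.62 RPKM of Oti_g12875. In dauer larvae the values were 21.4 and 73.9 RPKM and 18.1 and 57.8 RPKM.

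Lower effects at L4 than in mature adults were led by Oti_g12261, described above, and Oti_g04050. Oti_g04050 was at 126.03 and 142 RPKM in L4 and 7.0 and 5.30 RPKM in post-dauer L4, against 1.96 and 17.0 RPKM in mature adults and 35.0 and 21.3 RPKM in post-dauer mature adults. Their differences of effect were -6.96 ± 1.28 and -6.20 ± 1.18 (SE, Benjamini-Hochberg adjusted p from limma = 0.0401 and 0.0479). After quantile normalization 10 genes had a higher and 6 a lower effect at L4, 6 of the 16 among the 15, and the median over all genes moved from -0.22 to -0.07. With either L4 library, mature adult replicate 1, post-dauer L4 replicate 2 or post-dauer mature adult replicate 1 left out, 0 genes were called. The count was 1 without post-dauer mature adult replicate 2 but 179 with mature adult replicate 2 left out. It was 15 without post-dauer L4 replicate 1, with 8 genes shared.

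Against young adults, the post-dauer effect at L4 was lower for 181 genes (1.25%) and higher for 1 (0.00692%). The post-dauer young adult group holds replicate 1, with silent genes at 5.39 RPKM, and over all genes the median difference of effects was -0.44. With quantile normalization the median was 0.01, and 10 genes were lower and 0 higher, and with the silent-gene median subtracted 12 were lower and 4 higher. Oti_g01248 and Oti_g12119 led the lower genes, with differences of -12.14 ± 2.07 and -8.29 ± 1.65 (SE, Benjamini-Hochberg adjusted p from limma = 0.0279 and 0.0285). The single higher gene, Oti_g11521, was at 38.8 and 51.3 RPKM in post-dauer L4 against 13.8 and 12.8 RPKM in L4, and at 16.4 and 24.6 RPKM in post-dauer young adults against 43.9 and 23.5 RPKM in young adults. Its difference was 2.32 ± 0.56 (SE, Benjamini-Hochberg adjusted p from limma = 0.0447). A larger difference that missed the threshold was that of Oti_g04827, at 520.36 and 90.7 RPKM in post-dauer L4 against 3.93 and 3.59 RPKM in L4. Its difference of 5.81 ± 1.99 (SE) did not pass (Benjamini-Hochberg adjusted p from limma = 0.190). The count was 0 without L4 replicate 1 or 2 or post-dauer L4 replicate 1 or 2, 1 without young adult replicate 1, 102 without post-dauer young adult replicate 1, 716 (53 higher, 663 lower) without young adult replicate 2 and 1736 without post-dauer young adult replicate 2. Of those 1736, 945 were higher and 791 lower, so that the preponderance of lower effects did not hold there.

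Called genes sometimes carried consecutive ID numbers. Of the 33 higher genes, 8 had a called neighbour in ID number, in runs of at most 2, and of the 94 lower genes 9 did, with a longest run of 5. How often other lists of this size hold neighbours was not counted, so these counts have nothing to be read against. Whether ID order follows position in the genome is not stated, and reads that near-identical genes may share cannot be told apart in these values.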

How the data were processed

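The authors deposited 1 table of RPKM values with 1 column per library. That unit was inferred from column totals, 586700 to 643294 RPKM in the 4 libraries compared, and from the fractional values. Per the submitters' processing notes, HTSeq 2.0.2, StringTie 2.2.0, STAR 2.7.10 and Bowtie2 2.4.2 were used, their roles unstated. The genome build is not given in the sources used here. Per the labels' protocols, libraries were made from total RNA depleted of ribosomal RNA.

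The L4 columns carry the digits 1 and 2 and the labels 2 and 3, so the digit is only a name. Read depth is not in the file. In low values, the step left by 1 read was 1.21 times as large in post-dauer L4 replicate 2 as in L4 replicate 2, so that the latter was the deeper, and no clear step was found for the other pairs. Precision is limited by 2 libraries per group.

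Values were taken as log2(RPKM + 1) and 25 libraries of 12 larval, dauer and adult groups entered a single limma fit (limma 3.58.1, R 4.3.3; trend and robust moderation on), over 14446 genes that reached 1 RPKM in 2 or more libraries. This scale understates the change of low genes. The functions were tested on simulated data. Genes were named by rule: groups that do not overlap, a mean of at least 10 RPKM in the higher group, called genes first and then those at an unadjusted p under 0.05, the 2 of largest change in each direction per comparison. Members, lists and rules were chosen with earlier results of these data known. Cell type markers listed by gene name could not be matched to IDs and were not analysed here. Alternatives were other normalizations, filters, pseudocounts, library weights and sets of libraries; 2 of them, and the 4-fold rule, were added after seeing the data.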

Additional observations from a re-analysis of the deposited data

Results flagged for a closer look

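The post-dauer effect at L4 differed between stages by limma's test of the difference for some genes, which shares the L4 and post-dauer L4 libraries with the main comparison. Against mature adults it differed for 15 genes, among them Oti_g13559 (difference on the log2 scale 6.79), Oti_g12875 (6.06), Oti_g12261 (-6.96) and Oti_g04050 (-6.20). Against young adults it differed for 182 genes, among them Oti_g11521 (2.32), Oti_g01248 (-12.14) and Oti_g12119 (-8.29). At a pseudocount of 0.1 none of these named genes was called in either comparison. With only the groups compared in the fit, Oti_g01248 alone among them was called. In the comparison with young adults the raised silent genes of post-dauer young adult replicate 1 go with this count, and 102 genes (3 higher, 99 lower) were called without that library and 16 with the silent-gene median subtracted. No group of 2 libraries allows a test for a single library far from the others.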

How the results depend on the processing

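No paired analysis was possible because the L4 columns carry other digits than the labels, which give L4 the numbers 2 and 3 and post-dauer L4 the numbers 1 and 2. Between post-dauer L4 and L4, against 127 genes, limma called 461 when no other group entered the model, 27 at a pseudocount of 0.1, 932 with library weights, 749 without the 5 replicate 1 libraries of other groups, 816 (438 higher, 378 lower) when post-dauer L4 replicate 1 was left out as well, and 2 to 28 when 1 of the 4 libraries was left out. Subtracting the silent-gene median moved the median over all genes from 0.12 to -0.03 and gave 28 higher and 113 lower. For the difference from the effect at L3, against 0, the counts were 13 with only these groups, 1 without a trend, 4 with library weights, 1 without the 5 libraries and 3 with the silent-gene median subtracted, and 0 on leaving out any 1 library. For the difference from mature adults, against 15, they were 1 with only these groups, 0 with a pseudocount of 0.1, 1992 with library weights, 2175 without the 5 libraries, 23 with the silent-gene median subtracted, and 0 to 179 on leaving out 1 library. For the difference from young adults, against 182, they were 1 with only these groups, 10 after quantile normalization, 0 with a pseudocount of 0.1, 0 with library weights, 54 without the 5 libraries, 16 with the silent-gene median subtracted, and 0 to 1736 on leaving out 1 library. The cause was not tested. Among stage lists, the median reversed to 0.37 for mature adult over male genes and 0.12 for L3 over L2 genes with post-dauer L4 replicate 2 alone, to -0.33 for L1 over L3 genes with replicate 1 alone, and to 1.81 for L2 over L3 genes with the list rule at 4-fold, under which L1 over L3 genes left no list. No read counts are known, so differences among genes near 1 RPKM were not resolved.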
